A study of Mus musculus with 4 samples.

Results

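Integrins and laminins form an adhesion system that joins cells to the matrix around them, and 31 of the 28692 genes listed for these libraries encode its chains. The members were chosen by symbol alone, as every listed gene for an integrin α chain (12 genes, *Itgav* included), an integrin β chain (8 genes) or a laminin chain (11 genes). The rule uses no measured value, although the set was chosen with earlier results of these data known. The cells themselves were selected on the protein of a member, since sorting required β1 integrin at the surface.

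Each integrin is a pair of an α and a β chain, and the α chain largely sets which matrix protein is bound. Laminins are trimers of an α, a β and a γ chain and are the core of basement membranes, the thin sheets that underlie epithelium and mesothelium and wrap muscle and nerve. In the developing gut, laminins lie between epithelium and mesenchyme and beneath the serosal mesothelium, and integrins with the β1 chain are known for their part in the migration of enteric neural crest cells.

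Stromal cells of untreated mouse embryos at stage E12.5 were analysed by single-cell RNA sequencing in droplets, with 2 libraries of the small intestine (SI) and 2 of the large intestine with the cecum (LI). The strain is given as EYFP (C57BL/6), mice with ubiquitous yellow fluorescent protein (YFP), and the 2 experiments of each region each used the intestines of several embryos, so a library is a pool and not an animal. All groups shared the sort gate, which took live cells that were YFP+ and Itgb1+ and were CD45-, Ter119-, CD31- and EpCAM-, so leukocytes, erythroid cells, endothelium and epithelium were depleted everywhere. Sample titles and the protocol give stage and region, whereas some of the remaining labels name adult stroma or colonic tissue, and the titles were followed.

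After filters, 22094 cells remained of 24485 barcodes, 4603 to 6247 a library. The median number of unique molecular identifiers (UMIs, which count captured transcripts) per kept cell was 4220.5 in LI replicate 1 and between 8382 and 8829 in the other 3 libraries, so LI replicate 1 was the shallowest. The libraries shared 8 to 15 cell barcodes a pair, at most 0.221% of the smaller library. Clustering without the members gave 11 clusters, of which 4 had at least 3 marker genes of a single class among their 10 leading genes: SMC-like (smooth muscle-like, 5096 cells), mesothelial-like (1310 cells) and neural-like (2 clusters, 1246 cells). FB-like (fibroblast-like, 2 clusters, 9381 cells) took the clusters without markers of another type among their leading genes, except 1 that came mostly from LI replicate 2, and no fibroblast marker was among those genes either. Another 5061 cells stayed unnamed. The edges of the FB-like class were not firm, since the same steps with gene names sorted in another order named 10811 cells FB-like, 9212 of them in both, whereas mesothelial-like (1313 cells) and neural-like cells (1246 cells) hardly changed. The SMC-like, mesothelial-like and neural-like names were given from their markers, so the marker levels are a description and no check of the names. The summed level of 13 mesothelial markers was 2409 to 2836 CPM (the UMIs of a gene scaled to a total of 1000000 UMIs in the class and library) in mesothelial-like cells and at most 152 CPM in FB-like cells, and 16 neural markers summed to 3922 to 5620 CPM in neural-like cells against at most 92.8 CPM in FB-like cells. Smooth muscle markers were less even. In SMC-like cells, 10 of them summed to 1464 CPM in LI replicate 1, 5557 CPM in LI replicate 2, 4945 CPM in SI replicate 1 and 10407 CPM in SI replicate 2. In FB-like cells the same 10 summed to 612 to 2100 CPM, so smooth muscle RNA was measured there as well. The 8 fibroblast markers did not set FB-like cells apart. They summed to 939 to 1564 CPM in FB-like cells, to 988 to 1744 CPM in SMC-like cells and to 1346 to 3438 CPM in mesothelial-like cells, lower in FB-like cells than in either class in each library, and to at most 44.3 CPM in neural-like cells. FB-like is thus the name of the reference class of the comparisons and not a cell type shown by its markers.

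Of the 31 members, a group of 7 was at the edge of detection in the 4 named classes. *Itga7* (a laminin receptor chain of muscle), *Itga10* and *Itga11* (collagen receptor chains), *Itgb2* and *Itgb7* (chains of leukocyte integrins), *Itgb6* (an epithelial partner of αv) and *Lamc3* (a laminin γ chain) each stayed at or under 1.91 CPM in any class and library. *Itgb2* gave 4 UMIs over all 22094 cells and *Itgb6* gave 3. The remaining 24 members reached higher levels in at least some class, and the map of levels by class and library shows blocks that follow the class. UMIs are counted from transcript ends, so levels of different genes are not ranked against each other here, and in sums over cells a smaller number of expressing cells and less RNA per cell cannot be told apart.

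**Figure D1:**
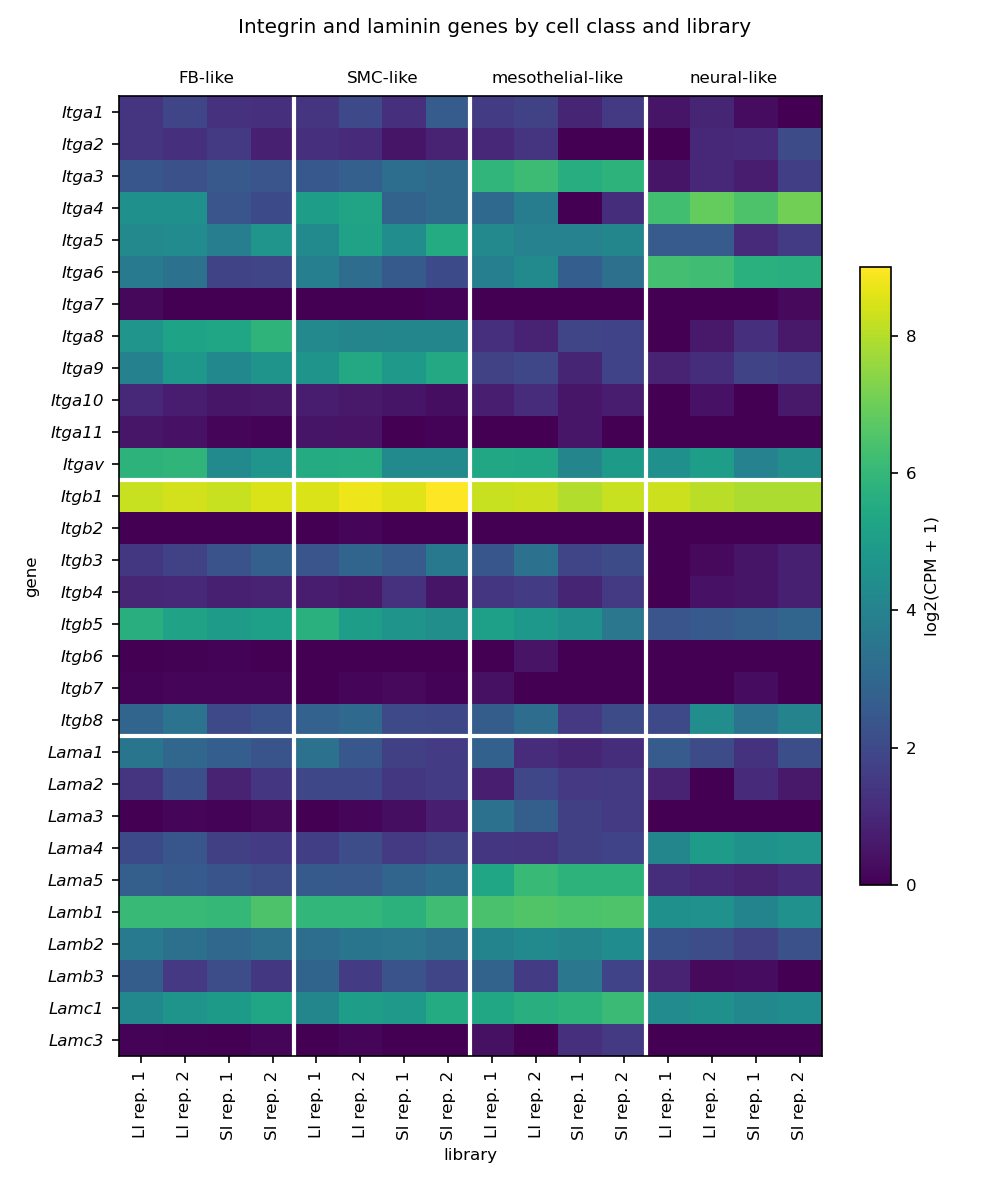
Level of 30 of the 31 members, as log2(CPM + 1) by colour, with genes in rows (integrin α, integrin β and laminin genes, set apart by white lines) and the 4 libraries of each cell class in columns. *Itga3* and *Lama5* stand out in mesothelial-like cells, *Itga4*, *Itga6* and *Lama4* in neural-like cells and *Itga8* in FB-like cells, and *Itga4* is darker in SI than in LI in every class but the neural-like one.

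*Itgb1*, the common β chain on which cells were sorted, was measured in every class. In FB-like cells it was at 300 CPM in LI replicate 1, 337 CPM in LI replicate 2, 302 CPM in SI replicate 1 and 358 CPM in SI replicate 2. The class means were 324 ± 28.2 CPM (SD, n = 4 libraries) in FB-like, 423 ± 68.1 CPM in SMC-like, 293 ± 30.1 CPM in mesothelial-like and 266 ± 38.7 CPM in neural-like cells. Of these, SMC-like and FB-like cells did not overlap (361 to 512 CPM against 300 to 358 CPM), yet the difference missed the threshold (log2 fold change 0.42 ± 0.13 SE, adjusted p = 0.061, edgeR quasi-likelihood test with Benjamini-Hochberg adjustment). Adjusted p was 0.46 for mesothelial-like and 0.13 for neural-like against FB-like cells in the same test, with overlapping ranges. No gate-negative cells were sequenced, so these levels describe cells that had already passed for the protein.

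The share of cells with at least 1 *Itgb1* UMI was compared after each cell was thinned to 3000 UMIs, which left out 3 to 658 shallower cells a class and library, since neural-like cells were deeper (median 11107.5 to 19853 UMIs) than FB-like cells (3981 to 9282 UMIs). The share was 60.5% ± 3.12 in FB-like, 70.5% ± 5.74 in SMC-like, 54.9% ± 3.17 in mesothelial-like and 53.1% ± 6.36 in neural-like cells (SD, n = 4 libraries). Without thinning the shares were 84.3%, 90.6%, 82.0% and 91.4% in the same order, so the place of neural-like cells in the order depended on depth. Over all classes and libraries the thinned share ran from 46.0% to 77.1% in cells that had all been gated for the protein, so a cell without a UMI is not a cell without the gene.

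To ask how the members differ between cell types, each class was compared with FB-like cells over the 4 libraries, with the library as a block. Of the 31 members, 22 passed the filter on low counts in that fit. The other 9 (*Itga2*, *Itga7*, *Itga10*, *Itga11*, *Itgb2*, *Itgb4*, *Itgb6*, *Itgb7* and *Lamc3*) were not tested and stayed at or under 3.12 CPM in every class and library. Of these, *Itga2* belongs to a collagen receptor and *Itgb4* is the partner of α6 in hemidesmosomes. A member that is present in only 1 class passes such a filter through that class, so the counts below describe the members tested and not all 31.

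Laminin genes made up most of the members that were higher in mesothelial-like cells. Against FB-like cells, 9 of the 22 tested members were higher, where 20.5% of all 12766 genes were, and 4 were lower, where 19.8% of all genes were (13 in either direction, against 40.3% of all genes). The 9 were *Itga3*, *Itga6* and 7 laminin genes, and the 4 were *Itga8*, *Itga9*, *Itgb5* and *Lama1*. The median log2 fold change was -0.01 over the tested members and -0.03 over all genes tested.

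*Itga3* encodes the α3 chain, which with β1 binds laminins rich in α5 and α3 chains. In mesothelial-like cells it was at 60.5, 70.5, 47.3 and 55.4 CPM (LI replicates 1 and 2, then SI replicates 1 and 2, the order used below), against 4.26, 3.73, 4.66 and 4.13 CPM in FB-like cells. Every mesothelial-like library lay far above every FB-like one. The log2 fold change was 3.83 ± 0.21 (SE, adjusted p = 5.5e-09, edgeR). After thinning, 17.3% ± 3.94 of mesothelial-like cells had an *Itga3* UMI (SD, n = 4), compared with 1.15% ± 0.112 of FB-like and 0.349% ± 0.288 of neural-like cells, the lowest class. Mesothelial-like cells were 2.74% to 10.4% of the kept cells of a library and gave 27.0% to 67.0% of its *Itga3* UMIs.

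*Lama5*, the α chain of the most widespread basement membrane laminins, followed the same pattern. Its level was 38.4, 66.5, 55.9 and 56.1 CPM in mesothelial-like cells and 5.6, 4.80, 4.09 and 3.41 CPM in FB-like cells. All 4 mesothelial-like libraries lay above all FB-like ones (log2 fold change 3.61 ± 0.20, adjusted p = 8.8e-09, edgeR). It was detected in 15.3% ± 4.78 of thinned mesothelial-like cells and in 0.292% ± 0.205 of neural-like cells.

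The sequences at the starts of these laminin and receptor genes are shown because *Itga3* and *Lama5* rose together in mesothelial-like cells. They come from RefSeq (build GRCm38.p6), span 250 bases before to 50 after the annotated start and run 5′ to 3′ on the gene's strand, with capitals marking GGGCGG or its reverse complement CCGCCC, a GC box of the kind bound by Sp family factors.
Itga3, chr11:95076665-95076964, minus strand: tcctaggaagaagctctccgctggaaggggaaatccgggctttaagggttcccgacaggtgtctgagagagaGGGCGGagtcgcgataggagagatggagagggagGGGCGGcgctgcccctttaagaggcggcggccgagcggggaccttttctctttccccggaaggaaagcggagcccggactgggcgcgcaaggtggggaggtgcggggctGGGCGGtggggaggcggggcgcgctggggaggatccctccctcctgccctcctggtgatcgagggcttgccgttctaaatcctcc
Lama5, chr2:180225810-180226109, minus strand: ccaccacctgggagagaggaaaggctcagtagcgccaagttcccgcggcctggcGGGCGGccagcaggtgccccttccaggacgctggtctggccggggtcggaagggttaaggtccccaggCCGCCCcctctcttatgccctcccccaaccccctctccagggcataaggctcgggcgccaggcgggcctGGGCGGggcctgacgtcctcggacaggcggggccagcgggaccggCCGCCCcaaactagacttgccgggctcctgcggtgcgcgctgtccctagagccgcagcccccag
The *Itga3* window holds 3 such matches at a GC content of 66.7%, and its RefSeq start lies 87 bases from the start in the GENCODE annotation. The *Lama5* window holds 4 matches at a GC content of 72.7%. GGGCGG on either strand occurs in 35.7% of 32851 promoter windows of the same length, in which the median GC content was 52.7%, so the matches are a description of GC-rich starts. An early growth response type motif, GCGNGGGNG on either strand, is held by 12.3% of windows and by neither of these. 20 of the 31 members had an entry in the promoter table.

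The β and γ chains that form trimers with α5 were higher as well, by smaller factors. *Lamb2* was at 15.7, 18.3, 16.2 and 19.8 CPM in mesothelial-like cells against 11.9, 9.02, 7.25 and 8.92 CPM in FB-like cells (log2 fold change 0.93 ± 0.16, adjusted p = 0.00041, edgeR). *Lamc1*, the γ chain of most laminins, was at 39.8, 49.0, 55.0 and 69.5 CPM against 17.6, 24.5, 28.7 and 39.3 CPM (0.99 ± 0.18, adjusted p = 0.00049). Both were higher in mesothelial-like cells in each of the 4 libraries and without overlap. *Lamb1* was at 85.2, 92.4, 86.9 and 90.5 CPM against 68.0, 68.2, 63.3 and 88.8 CPM. This difference was small (0.33 ± 0.10, adjusted p = 0.015, edgeR), the ranges overlapped through SI replicate 2, and the call was lost without LI replicate 1, LI replicate 2 or SI replicate 1 (adjusted p 0.054, 0.10 and 0.10) and under 6 of 16 alternative settings in all.

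*Lama3* and *Lamb3* encode chains of the laminin that anchors epithelium. *Lama3* was at 9.36, 5.58, 2.25 and 1.91 CPM in mesothelial-like cells and at 0 to 0.165 CPM in FB-like cells, which held only 6 UMIs of it over all libraries. Of its UMIs, 50 were in mesothelial-like cells and 0 in neural-like cells, so it passed the count filter through the class where it is high, and its call is given without its test. *Lamb3* split by replicate number in both classes, at 6.35, 1.99, 10.8 and 2.55 CPM in mesothelial-like and 5.23, 1.81, 3.42 and 1.76 CPM in FB-like cells. Its call (0.82 ± 0.31, adjusted p = 0.047, edgeR) was lost without LI replicate 2, SI replicate 1 or SI replicate 2 (adjusted p 0.083, 0.52 and 0.061) and under 8 of 16 settings in all. Epithelial markers, 8 genes, summed to 25.7 to 42.2 CPM in mesothelial-like cells against 6.72 to 16.3 CPM in FB-like cells. Of the 8, 4 to 6 were at 0 in mesothelial-like cells. Endothelial markers, 7 genes, summed to 25.5 to 36.1 CPM in mesothelial-like cells against 13.2 to 21.0 CPM in FB-like cells. The part of both lists in these laminin genes was not tested.

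*Itga6*, which pairs with β1 or β4 as a laminin receptor, was modestly higher in mesothelial-like cells, at 13.7, 18.7, 5.41 and 8.92 CPM against 12.2, 9.61, 2.59 and 2.64 CPM in FB-like cells. The class difference held within each library although the class ranges overlapped (0.89 ± 0.29, adjusted p = 0.023, edgeR). It was lost without LI replicate 2, SI replicate 1 or SI replicate 2 (adjusted p 0.12, 0.055 and 0.073), in G1 cells and without the library block.

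The 4 members that were lower in mesothelial-like cells were 3 integrin chains and a laminin chain. *Itga8*, the receptor chain for nephronectin, was at 24.8, 36.4, 37.8 and 56.2 CPM in FB-like cells and at 1.34, 0.797, 2.70 and 2.55 CPM in mesothelial-like cells. The groups were far apart (-4.39 ± 0.32, adjusted p = 1.0e-07, edgeR), and the lowest FB-like value was that of the shallowest library. *Itga9*, a receptor chain for tenascin C among others, was at 14.4, 26.6, 17.3 and 24.2 CPM in FB-like cells and at 2.34, 2.79, 0.901 and 2.55 CPM in mesothelial-like cells (-3.19 ± 0.24, adjusted p = 1.4e-07). *Itgb5*, a partner of αv, was at 50.6, 35.4, 30.6 and 33.2 CPM against 33.1, 26.7, 22.1 and 10.8 CPM (-0.66 ± 0.18, adjusted p = 0.010). *Lama1*, the α chain of an early embryonic laminin, was at 10.4, 6.86, 5.49 and 4.02 CPM against 6.02, 1.19, 0.901 and 1.27 CPM (-1.55 ± 0.35, adjusted p = 0.0030). The last 2 genes were lower in mesothelial-like cells of every library, but their ranges overlapped because LI replicate 1 was high in both classes. The calls of both ended without the library block (adjusted p 0.12 for each).

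**Figure D2:**
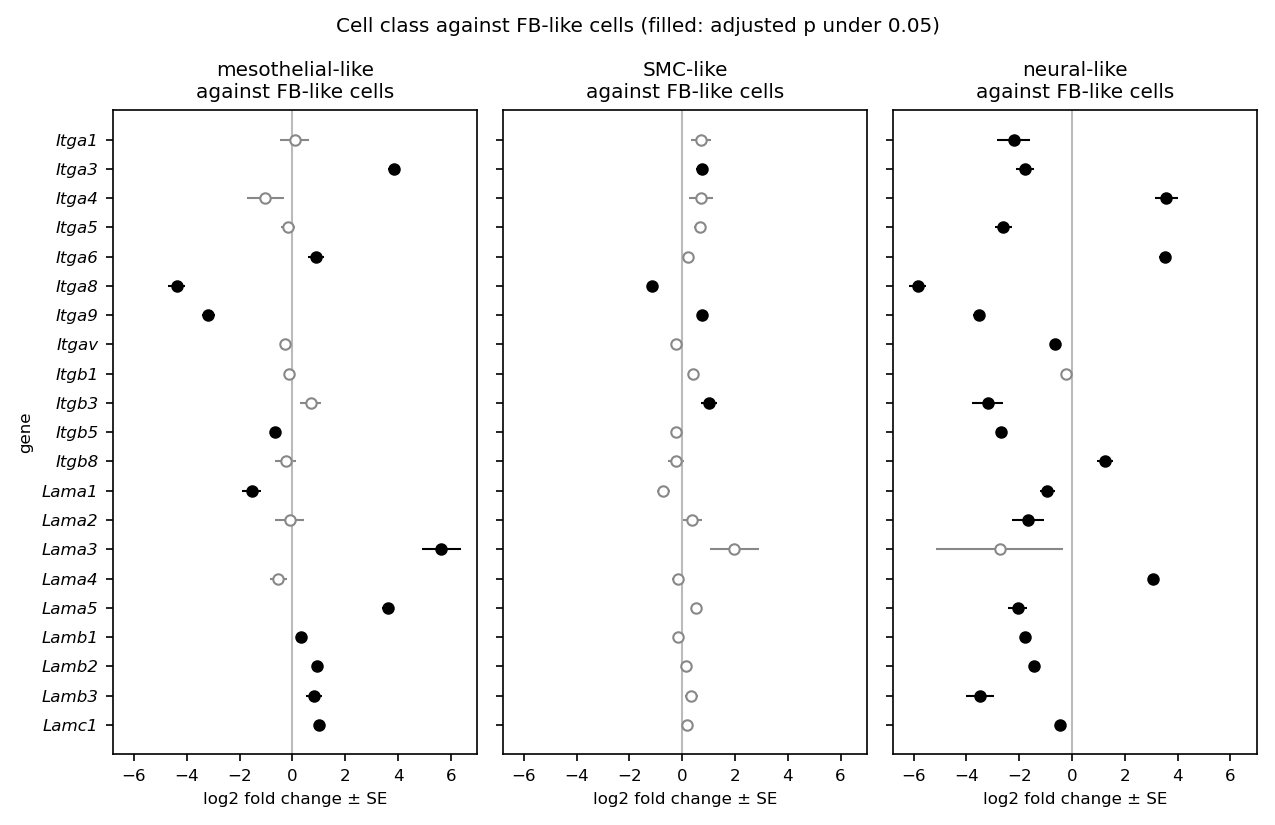
Log2 fold change (horizontal axis, error bars are SE) of 21 of the 22 tested members in mesothelial-like, SMC-like and neural-like cells, each against FB-like cells over 4 libraries, with filled points for an adjusted p under 0.05. The mesothelial-like panel has most laminin genes to the right of 0, the SMC-like panel has most points close to 0, and the neural-like panel has 4 filled points to the right and 15 to the left.

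SMC-like cells had the fewest called members of these classes. Among the 22 tested members, 3 were higher in SMC-like cells, where 4.09% of all 12766 genes were, and 1 was lower, where 4.71% were (4 in either direction, against 8.8%). The median log2 fold change was 0.35 over the members and 0.01 over all genes. No laminin gene passed the test, and the 4 that did were integrin chains.

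*Itga8* was lower in SMC-like cells, at 18.0, 16.1, 16.6 and 16.5 CPM against the FB-like values above. It varied little between libraries in SMC-like cells (SD 0.855 CPM) and more in FB-like cells (SD 13.0 CPM), without overlap (-1.16 ± 0.17, adjusted p = 6.6e-04, edgeR). *Itga9* was higher, at 24.0, 42.7, 27.5 and 42.5 CPM against 14.4, 26.6, 17.3 and 24.2 CPM (0.76 ± 0.12, adjusted p = 0.0012), and in both classes the replicates numbered 2 were the higher ones. *Itga3* was at 4.62, 5.79, 8.61 and 7.62 CPM (0.75 ± 0.21, adjusted p = 0.041). *Itgb3*, the αv partner best known from platelets and osteoclasts, was at 4.18, 6.69, 4.99 and 11.5 CPM against 1.72, 2.40, 3.88 and 5.73 CPM (1.02 ± 0.30, adjusted p = 0.048). The calls for *Itga3* and *Itgb3* were weak: that of *Itga3* was lost without LI replicate 2, SI replicate 1 or SI replicate 2 (adjusted p 0.16 to 0.17), and that of *Itgb3* when any 1 of the 4 libraries was left out (adjusted p 0.081 to 0.19). DESeq2 called neither (adjusted p 0.083 and 0.095), and the call of *Itga9* ended without the library block (adjusted p = 0.15, edgeR). In SMC-like cells *Itga8*, *Itga9*, *Itga3* and *Itgb3* were read beside the smooth muscle marker sum, which varied between libraries as given above. Of these, only *Itgb3* had the same order of libraries as the sum. The part of the sum in these differences was not tested.

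In neural-like cells most of the tested integrin and laminin genes were lower than in FB-like cells. Of the 22 tested members, 4 were higher than in FB-like cells, where 27.9% of all 12766 genes were, and 15 were lower, where 30.3% were (19 in either direction, against 58.2%). The median log2 fold change was -1.78 over the members and -0.03 over all genes. The 4 that were higher were *Itga4*, *Itga6*, *Itgb8* and *Lama4*.

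*Itga4* encodes α4, which with β1 binds fibronectin and the cell surface ligand VCAM1. In neural-like cells it was at 76.4, 118, 89.2 and 136 CPM, and in FB-like cells at 22.0, 21.8, 4.19 and 3.03 CPM. Every neural-like library lay above every FB-like one (log2 fold change 3.57 ± 0.44, adjusted p = 7.5e-06, edgeR). Within the neural-like class, cluster 7, led by the progenitor genes *Foxd3* and *Sox10*, held it at 131 ± 38.3 CPM (SD, n = 4), and cluster 9, led by the neuronal genes *Cartpt*, *Stmn2* and *Tubb3*, at 6.21 ± 1.67 CPM. The clusters were made without the members, but *Itga4* may follow genes that made them, so this contrast is given without a test. Exons of *Cerkl*, a gene on the opposite strand, overlap those of *Itga4*, and how strand was used in counting is not given in the sources used here.

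*Itga6* was at 77.7, 75.5, 51.4 and 49.9 CPM in neural-like cells, far above the FB-like range of 2.59 to 12.2 CPM (3.51 ± 0.22, adjusted p = 4.8e-09, edgeR). Cluster 7 held it at 74.2 ± 15.1 CPM and cluster 9 at 21.3 ± 6.25 CPM. *Lama4*, the α chain of laminins of vessels and nerves, was at 16.5, 29.4, 23.4 and 24.6 CPM against 3.06, 4.26, 2.28 and 1.98 CPM (3.09 ± 0.17, adjusted p = 1.8e-09). It too was mostly in cluster 7, at 28.9 ± 7.42 CPM against 2.93 ± 1.74 CPM in cluster 9. *Itgb8*, a partner of αv, was at 2.96, 20.3, 9.77 and 15.4 CPM against 6.72, 9.80, 3.0 and 3.80 CPM. It was higher in only 3 of the 4 libraries, with LI replicate 1 the exception (1.24 ± 0.30, adjusted p = 0.0026, edgeR), and its call ended in G1 cells (adjusted p = 0.066) and without the library block (0.053). Endothelial markers, 7 genes, summed to 43.7 to 60.8 CPM in neural-like cells against 13.2 to 21.0 CPM in FB-like cells, with 2 to 3 of the 7 at 0 in neural-like cells, and their part in *Lama4* and *Itga6*, which endothelium also expresses, was not tested.

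**Figure D3:**
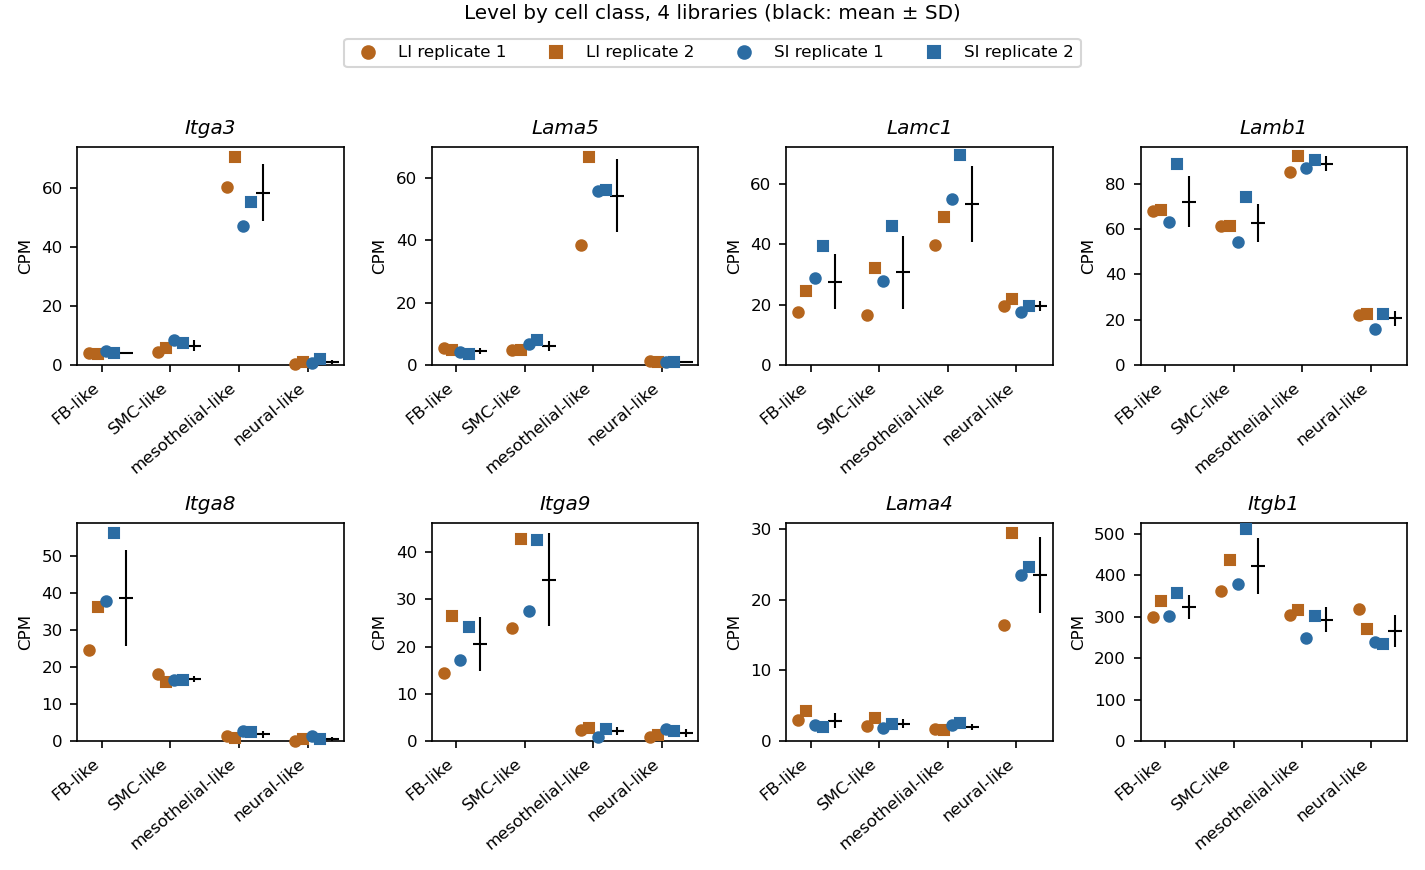
Level in CPM (vertical axis, from 0) of 8 members in the 4 cell classes, with a point for each library (circles for replicate 1, squares for replicate 2, brown for LI, blue for SI) and the mean ± SD over 4 libraries in black. *Itga3* and *Lama5* are high only in mesothelial-like cells among these classes, *Lama4* only in neural-like cells, *Itga8* falls from FB-like to SMC-like to the other classes, and *Itgb1* is present in all.

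The 15 members that were lower in neural-like cells were 8 integrin and 7 laminin genes. *Itga8* was at 0, 0.538, 1.30 and 0.551 CPM (-5.85 ± 0.32, adjusted p = 1.3e-09, edgeR), with 12 UMIs in the class in all. *Itga9* was at 0.845, 1.26, 2.60 and 2.20 CPM (-3.54 ± 0.21, adjusted p = 2.4e-09). *Itgb5* was at 4.22, 4.67, 5.64 and 6.61 CPM (-2.67 ± 0.21, adjusted p = 5.2e-08). All of them lay below every FB-like library. *Itga5*, the classical fibronectin receptor chain, was at 5.07, 5.02, 1.09 and 2.02 CPM against 17.9, 19.3, 13.4 and 25.1 CPM (-2.60 ± 0.33, adjusted p = 9.5e-06). *Itgb3* was at 0, 0.179, 0.434 and 0.734 CPM (-3.20 ± 0.57, adjusted p = 2.4e-04). *Itga1*, a collagen receptor chain, was at 0.422, 0.897, 0.217 and 0 CPM against 1.57, 2.65, 1.45 and 1.32 CPM (-2.21 ± 0.63, adjusted p = 0.0077). None of these groups overlapped with FB-like cells, although *Itga1* and *Itgb3* rested on 7 neural-like UMIs each. *Itga3* was at 0.422, 1.08, 0.651 and 2.20 CPM (-1.77 ± 0.35, adjusted p = 5.5e-04), a difference that was -0.28 and no longer called in G1 cells alone (adjusted p = 0.63). *Itgav* was at 22.0, 31.0, 15 and 20.9 CPM (-0.64 ± 0.14, adjusted p = 9.3e-04), lower in each library but with overlapping ranges, and its call ended without the library block (adjusted p = 0.14).

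Among the laminin genes, *Lamb1* was at 22.0, 22.4, 15.8 and 22.6 CPM in neural-like cells (-1.78 ± 0.11, adjusted p = 4.4e-09, edgeR). *Lamb2* was at 3.80, 3.41, 2.39 and 3.67 CPM (-1.45 ± 0.19, adjusted p = 1.6e-05). *Lama5* was at 1.27, 1.08, 0.868 and 1.10 CPM (-2.06 ± 0.35, adjusted p = 1.6e-04). All 3 lay below every FB-like library. *Lamb3* was at 0.845, 0.179, 0.217 and 0 CPM (-3.48 ± 0.52, adjusted p = 4.2e-05). *Lama1* was at 5.07, 3.23, 1.52 and 3.49 CPM (-0.94 ± 0.28, adjusted p = 0.011). *Lama2*, the α chain of the muscle basement membrane, was at 0.845, 0, 1.09 and 0.551 CPM against 1.57, 3.58, 0.880 and 1.71 CPM (-1.67 ± 0.59, adjusted p = 0.025). *Lamc1* was at 19.4, 21.7, 17.6 and 19.6 CPM and differed by little (-0.46 ± 0.19, adjusted p = 0.046). The calls for the last 3 were not firm. They were lost in 3 of 16 alternative settings for *Lama1*, 3 of 14 for *Lama2* and 9 of 16 for *Lamc1*. Some of these settings left out no library. Without the library block *Lama1* and *Lamc1* were lost (adjusted p 0.15 and 0.24, edgeR). With the 2 classes alone *Lama2* and *Lamc1* were lost (adjusted p 0.13 and 0.15, edgeR). *Lama1* was lost without LI replicate 2 or SI replicate 1 (adjusted p 0.051 and 0.088), *Lama2* without LI replicate 2 or SI replicate 2 (0.27 and 0.083), and *Lamc1* without LI replicate 2, SI replicate 1 or SI replicate 2 (0.052, 0.27 and 0.33), and DESeq2 did not call *Lamc1* either (adjusted p = 0.12).

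**Figure D4:**
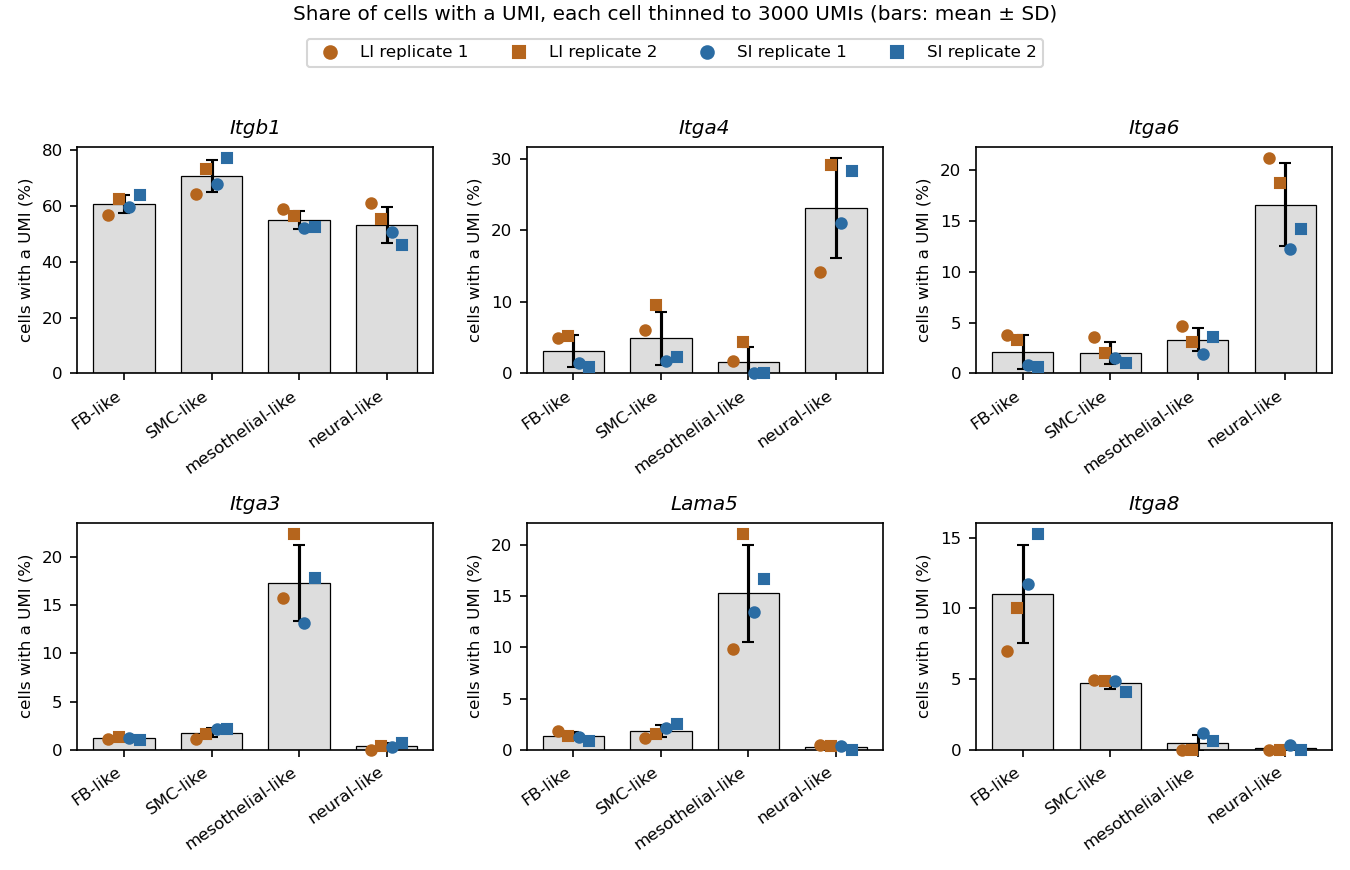
Share of cells with at least 1 UMI in percent (vertical axis, from 0), after each cell was thinned to 3000 UMIs, for 6 members in the 4 cell classes, with bars for the mean over 4 libraries, error bars for the SD and a point for each library (circles for replicate 1, squares for replicate 2, brown for LI, blue for SI). *Itgb1* is found in 46.0% to 77.1% of cells of each class and library, *Itga4* and *Itga6* mainly in neural-like cells, *Itga3* and *Lama5* mainly in mesothelial-like cells and *Itga8* mainly in FB-like cells.

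To ask how the members differ along the gut, SI and LI were compared within each class, with 2 libraries each. In FB-like cells 23 members were tested. Of these, 3 were higher in LI, where 3.16% of all 13405 genes were, and 0 were higher in SI, where 1.25% of all genes were, or 4.4% in either direction (edgeR; 8 of the 23 had an unadjusted p under 0.05, and DESeq2 called 3 higher in LI and 1 higher in SI). All 3 are integrin α chains, *Itga4*, *Itga6* and *Itgav*, and no β chain or laminin gene was called. The median log2 fold change, taken as SI over LI, was -0.25 over the members and 0.00 over all genes. Among the 23 members, 15 had no overlap between the regions, compared with 52.6% of all genes tested. The share of cells in G1 phase was 50.4% and 57.4% in LI and 29.5% and 47.4% in SI among FB-like cells, and in G1 cells alone 4 members were called higher in LI and 1 in SI, where 381 and 265 of all genes were. Leaving out a library leaves 1 library of its region against 2 of the other, so that the spread comes from the other region and the lone library is assumed to vary alike, which limits what these counts and the calls kept or lost this way show. Without LI replicate 1, 5 members were higher in LI and 1 in SI (669 and 353 of all genes), and without LI replicate 2 the count was 4 in each direction, where 932 of all genes were higher in LI and 1374 in SI.

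*Itga4* had the largest difference among the called members. In FB-like cells its level was 22.0 and 21.8 CPM in LI replicates 1 and 2 and 4.19 and 3.03 CPM in SI replicates 1 and 2. The 2 LI libraries were nearly equal and both SI libraries lay well below them (log2 fold change, SI over LI, of -2.44 ± 0.24, adjusted p = 6.1e-04, edgeR, a 5.42-fold difference). Both FB-like clusters showed it. Cluster 0, led by *Igfbp5*, *Scx* and *Pitx1*, held *Itga4* at 26.2, 27.8, 5.43 and 2.73 CPM, and cluster 2, led by histone genes, held it at 14.9, 10.05, 2.98 and 3.53 CPM. The call held under all 15 alternative settings, of which 4 left out a library. Several marker lists of other cell types also separated the regions in FB-like cells. Lower in LI were the sums of smooth muscle markers (612 and 1097 CPM in LI, 1271 and 2100 CPM in SI), neural markers (24.9 and 45.3 against 71.6 and 92.8 CPM), endothelial markers (14.7 and 13.2 against 21.0 and 19.5 CPM) and immune markers (2.24 and 4.17 against 4.50 and 13.3 CPM). Higher in LI were those of mesothelial markers (152 and 68.7 CPM in LI, 54.8 and 32.8 CPM in SI), epithelial markers (13.1 and 16.3 against 7.40 and 6.72 CPM) and markers of gastric or splenopancreatic mesenchyme (4.56 and 3.48 against 1.35 and 1.05 CPM). Their part in the differences of *Itga4* and the other called members was not tested.

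*Itga6* was at 12.2 and 9.61 CPM in LI and at 2.59 and 2.64 CPM in SI. The SI pair agreed closely and did not overlap with LI (-1.90 ± 0.26, adjusted p = 0.0041, edgeR), and this call too held under all 15 settings. *Itgav*, whose αv chain binds vitronectin, fibronectin and the latent form of TGFβ, was at 55.9 and 58.3 CPM in LI and at 18.2 and 24.8 CPM in SI. Again there was no overlap (-1.26 ± 0.20, adjusted p = 0.0091), but without SI replicate 1, with a single SI library left, the adjusted p was 0.077.

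SMC-like cells showed the difference for 2 of the same genes. Of 21 members tested there, 2 were higher in LI, where 1.01% of all 12287 genes were, and 0 were higher in SI, where 0.358% were, or 1.37% in either direction (8 of the 21 had an unadjusted p under 0.05 in edgeR, and DESeq2 called 2, both higher in LI). *Itga4* was at 31.5 and 37.1 CPM in LI and at 6.37 and 7.56 CPM in SI (-2.15 ± 0.22, adjusted p = 0.0052, edgeR). *Itgav* was at 45.3 and 46.5 CPM in LI and at 18.3 and 18.7 CPM in SI (-1.17 ± 0.18, adjusted p = 0.030). In both genes the replicates of a region were close and the regions did not overlap, while the adjusted p of *Itgav* was 0.093 without SI replicate 1 and 0.14 without SI replicate 2, each time with a single SI library against 2 of LI. *Itga6* was at 13.6 and 8.37 CPM in LI and 4.82 and 3.07 CPM in SI and missed the threshold (-1.33 ± 0.36, adjusted p = 0.18). Several marker lists of other cell types separated the regions in SMC-like cells too. Higher in LI were mesothelial (134 and 47.9 against 35.7 and 19.2 CPM), epithelial (21.3 and 12.9 against 11.3 and 6.14 CPM) and gastric or splenopancreatic markers (6.38 and 2.70 against 0.517 and 0.307 CPM). Neural markers were lower in LI (24.4 and 76.2 against 84.8 and 153 CPM). The part of these lists in the called members was not tested. Over the tested members, 10 of 21 had no overlap, compared with 46.6% of all genes, and the median log2 fold change was 0.10 against 0.01 over all genes. The difference of *Itga4* between regions was not shown to differ between SMC-like and FB-like cells (interaction 0.28 ± 0.30, adjusted p = 0.97, edgeR), and no member passed that interaction test among 24 tested, where 0.488% of all genes did (3 members had an unadjusted p under 0.05, and DESeq2 called 0).

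The starts of *Itga4* and *Itgav* are printed because both genes were higher in LI in FB-like and SMC-like cells. Source, span, strand convention and capitals are as for the windows above.
Itga4, chr2:79255176-79255475, plus strand: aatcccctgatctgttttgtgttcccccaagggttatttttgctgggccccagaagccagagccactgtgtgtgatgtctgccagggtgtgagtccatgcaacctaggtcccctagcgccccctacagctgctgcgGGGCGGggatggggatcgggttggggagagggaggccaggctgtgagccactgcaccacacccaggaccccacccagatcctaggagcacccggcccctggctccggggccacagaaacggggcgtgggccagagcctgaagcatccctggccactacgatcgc
Itgav, chr2:83724147-83724446, plus strand: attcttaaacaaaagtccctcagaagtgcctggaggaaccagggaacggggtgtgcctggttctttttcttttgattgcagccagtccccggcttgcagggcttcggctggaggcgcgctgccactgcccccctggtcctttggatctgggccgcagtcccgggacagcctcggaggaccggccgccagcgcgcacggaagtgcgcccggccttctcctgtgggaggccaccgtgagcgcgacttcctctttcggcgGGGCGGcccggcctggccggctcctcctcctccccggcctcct
Each holds 1 match to GGGCGG or its reverse complement, at a GC content of 64.3% in *Itga4* and 67.3% in *Itgav*. Neither holds GCGNGGGNG, nor AATAAA on either strand, the core letters of a posterior homeobox motif, which 19.6% of all windows hold. No match in 300 bases says only that these letters are not in the window.

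**Figure D5:**
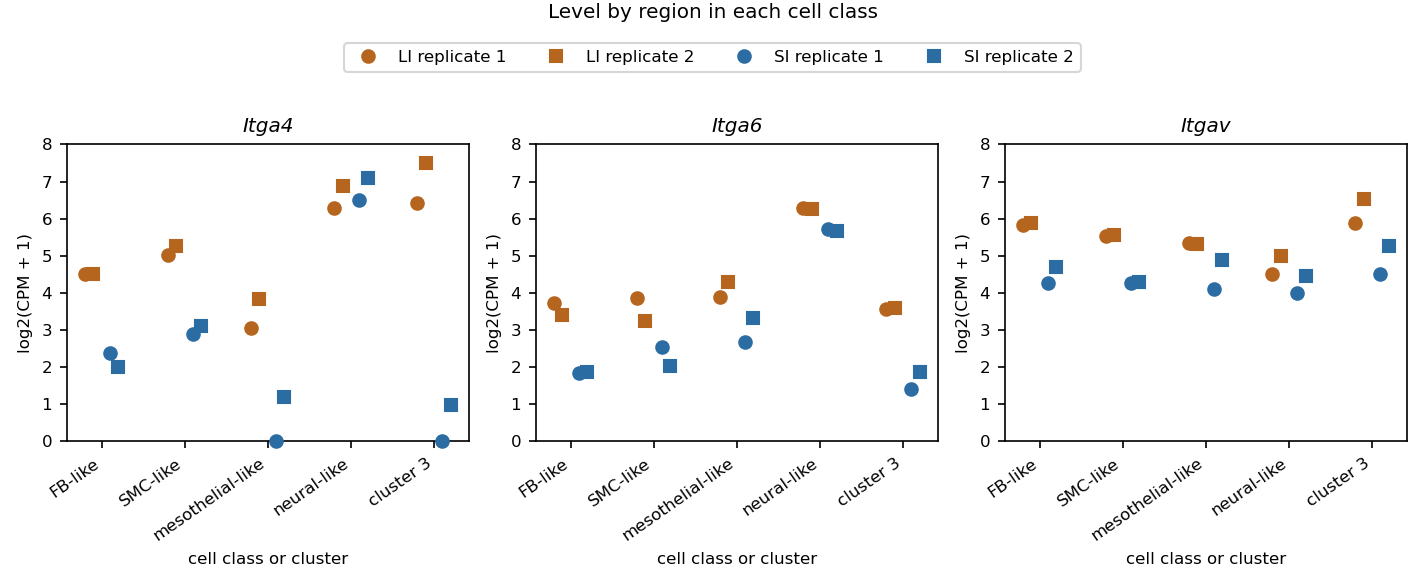
Level of *Itga4*, *Itga6* and *Itgav* as log2(CPM + 1) (vertical axis) in each cell class and in the unnamed cluster 3, with a point for each library (circles for replicate 1, squares for replicate 2, brown for LI, blue for SI). *Itga4* is lower in SI in FB-like and SMC-like cells and at or near 0 in SI in mesothelial-like cells and cluster 3, while the regions overlap in neural-like cells.

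In mesothelial-like cells 15 members were tested and 0 were called in edgeR, where 0.892% of all 10645 genes were (7 had an unadjusted p under 0.05, and DESeq2 called 0). *Itga4* gave 55 UMIs in LI and 2 UMIs in SI, that is 7.35 and 13.1 CPM in LI and 0 and 1.27 CPM in SI. The ratio of LI over SI was 18.9 (95% interval 5.0 to 160, counting error only), and the adjusted p of 0.052 missed the threshold. *Itgav* was at 39.8 and 39.0 CPM in LI and 16.2 and 28.7 CPM in SI (-0.79 ± 0.30, adjusted p = 0.36, edgeR). *Itga6*, at 13.7 and 18.7 CPM in LI and 5.41 and 8.92 CPM in SI, also missed it (-1.15 ± 0.38, adjusted p = 0.28). All 3 were without overlap and in the direction seen in FB-like cells, and 10 of the 15 tested members had no overlap, compared with 41.8% of all genes. *Lama5* and *Itga3*, which set mesothelial-like cells apart from other classes, overlapped between regions in the case of *Lama5* (38.4 to 66.5 CPM in LI, 55.9 and 56.1 CPM in SI) and not in the case of *Itga3* (60.5 and 70.5 CPM in LI, 47.3 and 55.4 CPM in SI).

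The regional difference itself was compared between mesothelial-like and FB-like cells for 24 members, and *Itgb3* was the only one called, among those shifted towards LI, as 1.11% of all 13119 genes were. None was shifted towards SI, as 1.18% of all genes were (2.29% in either direction). Its level was 4.35 and 9.16 CPM in LI and 2.70 and 3.19 CPM in SI in mesothelial-like cells. In FB-like cells it ran the other way, at 1.72 and 2.40 CPM in LI and 3.88 and 5.73 CPM in SI. The interaction was -2.43 ± 0.51 (log2, adjusted p = 0.016, edgeR) and rested on 47 mesothelial-like UMIs. It was lost when any 1 of the 4 libraries was left out (adjusted p 0.056 to 0.17) and under 7 of 14 settings in all.

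Neural-like cells were the class in which *Itga4* did not differ by region in the same way. Of 13 members tested there, 0 were called in edgeR, where 0.310% of all 11283 genes were (3 had an unadjusted p under 0.05, and DESeq2 called 0). *Itga4* was at 76.4 and 118 CPM in LI and at 89.2 and 136 CPM in SI, with interleaved replicates (0.14 ± 0.25, adjusted p = 0.94, edgeR). *Itga6* was at 77.7 and 75.5 CPM in LI and 51.4 and 49.9 CPM in SI, a smaller step than in FB-like cells that missed the threshold (-0.66 ± 0.19, adjusted p = 0.26). Of the 13, 6 had no overlap between regions, compared with 38.9% of all genes.

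Whether the regional difference differed between neural-like and FB-like cells was tested after these levels had been seen. Among 24 members, 2 were shifted towards SI, where 5.43% of all 13119 genes were, and 4 towards LI, where 7.76% were. The shift of *Itga4* was 2.56 ± 0.26 (log2, adjusted p = 1.1e-05, edgeR), and it held under all 14 alternative settings, where those without a library again have a single library in a region. That of *Itga6* was 1.23 ± 0.26 (adjusted p = 0.0050), and it was lost in G1 cells alone (adjusted p = 0.26) and with genes sorted in another order before clustering (0.80, adjusted p = 0.079). *Itga5*, at 5.07 and 5.02 CPM in LI and 1.09 and 2.02 CPM in SI among neural-like cells, had an interaction of -1.90 ± 0.58 (adjusted p = 0.040), and its call was lost without LI replicate 2, SI replicate 1 or SI replicate 2 (adjusted p 0.060, 0.094 and 0.25). *Lamc1* had an interaction of -0.99 ± 0.25 (adjusted p = 0.015), lost without LI replicate 1 or SI replicate 2 (0.052 and 0.16). For *Itgb1* the interaction was -0.55 ± 0.17 (adjusted p = 0.036), lost without LI replicate 1 or SI replicate 2 (0.30 and 0.26). For *Lamb1* it was -0.56 ± 0.18 (adjusted p = 0.046), lost when any 1 of the 4 libraries was left out (0.078 to 0.20). The other gene order also ended the calls of *Itga5*, *Itgb1* and *Lamb1* (adjusted p 0.067 to 0.068). In G1 cells alone those of *Itga5* and *Itgb1* ended (adjusted p 0.21 and 0.16, edgeR). DESeq2 called neither *Itgb1* nor *Lamb1* (adjusted p 0.087 and 0.068). Over the 14 alternative settings the call was lost in 7 for *Itga5*, 6 for *Itgb1* and 9 for *Lamb1*.

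The cells that held the *Itga4* transcripts differed between the regions. Neural-like cells gave 18.5% and 25.3% of all *Itga4* UMIs of the LI libraries and 65.0% and 69.7% of those of the SI libraries. They were 3.60% and 5.74% of kept cells in LI and 6.34% and 6.98% in SI. Their median depth was 11107.5 and 19853 UMIs in LI and 13941.5 and 11798.5 UMIs in SI. That of FB-like cells was 3981 and 8444 UMIs in LI and 9282 and 8362 UMIs in SI. The share of cells thus understates the share of all UMIs that neural-like cells held. FB-like cells gave 30.1% and 17.2% in LI and 12.8% and 5.18% in SI. Much of the rest of the LI transcripts came from cluster 3, an unnamed cluster of 2017 cells led by *Adamdec1*, *Bmp3* and *Col14a1*, with 19.3% and 30.2% in LI and 0% and 0.659% in SI.

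In cluster 3, *Itga4* was at 85.2 and 181 CPM in LI and at 0 and 0.985 CPM in SI, or 189 and 783 UMIs against 0 and 7 UMIs. Of the LI levels, that of replicate 2 lay above the neural-like range of 76.4 to 136 CPM and that of replicate 1 within it, and those in SI were at the limit of detection. Summed over libraries the ratio of LI over SI was 254 (95% interval 123 to 633, counting error only). The cluster was singled out after its values were seen, so no test is given. *Itgav* in the same cells was at 57.7 and 92 CPM in LI and at 21.7 and 37.6 CPM in SI, and *Itga6* was at 10.8 and 11.1 CPM in LI and at 1.66 and 2.67 CPM in SI. These smaller differences had the same direction as in FB-like cells. When clusters 3 and 4 were counted with the FB-like class, the call for *Itga4* remained.

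The genes that work with integrins and laminins were read from 5 lists, 81 genes in all, which were likewise left out of clustering. In FB-like cells, 2 of the 72 tested were higher in SI and 7 were higher in LI, beside 1.25% and 3.16% of all genes. Among these, *Hmcn1* (hemicentin, a matrix protein of tissue linkages) was at 28.9 and 32.3 CPM in LI and 2.64 and 2.70 CPM in SI, with a log2 fold change of -3.36 ± 0.22 (adjusted p = 7.3e-05, edgeR). *Tnc* (tenascin C, a ligand of α9) was at 10.5 and 13.2 CPM in LI and 1.14 and 1.32 CPM in SI (-3.11 ± 0.28, adjusted p = 3.8e-04). *Edil3*, a ligand of αv integrins, was at 38.2 and 42 CPM in LI and 12.2 and 10.8 CPM in SI (-1.64 ± 0.19, adjusted p = 0.0017). Each pair of regions was separate. *Parvb*, an adaptor of the integrin-linked kinase complex, was higher in LI (-1.70 ± 0.39, adjusted p = 0.043), and *Smoc2* (1.29 ± 0.30, adjusted p = 0.044) and *Emilin1* (0.91 ± 0.20, adjusted p = 0.040), matrix proteins, were higher in SI.

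In SMC-like cells 4 of the 72 tested were higher in LI and 0 in SI, beside 1.01% and 0.358% of all genes, and the 4 were *Hmcn1*, *Tnc*, *Edil3* and *Vcam1*. *Vcam1*, the cell surface ligand of α4β1, was at 37.0 and 44.3 CPM in LI and 3.62 and 5.35 CPM in SI (-3.02 ± 0.26, adjusted p = 0.0031, edgeR). In FB-like cells *Vcam1* was at 18.7 and 19.3 CPM in LI and 6.83 and 20.2 CPM in SI, so the regions overlapped there. Its regional difference was larger in SMC-like than in FB-like cells (interaction -2.66 ± 0.25, adjusted p = 1.9e-04, edgeR). The RNA of this ligand and that of the α4 chain were thus both higher in LI in SMC-like cells, and a link between them was not tested.

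In mesothelial-like cells 2 of 69 tested companion genes were higher in SI, *Postn* (1.44 ± 0.25, adjusted p = 0.024, edgeR) and *Smoc2* (1.26 ± 0.22, adjusted p = 0.024). The shares of all genes higher in SI and LI were 0.413% and 0.479%. Another 3 were higher in LI, *Hmcn1* (-2.45 ± 0.41, adjusted p = 0.019), *Edil3* (-2.43 ± 0.38, adjusted p = 0.016) and *Frem1* (-2.42 ± 0.46, adjusted p = 0.037). *Postn* encodes periostin, an integrin ligand, and *Frem1* a protein of the basement membrane. In neural-like cells 0 of 56 were called, beside 0.310% of all genes (edgeR). *Hmcn1* was nevertheless at 98.8 and 83.3 CPM in LI and 45.4 and 53.2 CPM in SI there, above its level in FB-like cells.

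Between classes, the lists are read against the shares of all genes called, 20.5% higher and 19.8% lower in mesothelial-like than in FB-like cells. As with the members, a gene present in only 1 class passes the count filter through that class. The fit of all classes tested 17 basement membrane partners, 19 ligands and 9 laminin receptor or dystrophin complex genes. The fit of regions within FB-like cells tested 16, 18 and 8. The counts, fold changes and tests against FB-like cells carry that limit for every class. Of 17 basement membrane partners tested, 10 were higher and 1 was lower in mesothelial-like cells, with a median log2 fold change of 1.00. The largest were *Col18a1* (4.54 ± 0.44, adjusted p = 2.1e-06, edgeR), which encodes the core of a basement membrane collagen, *Fbln2* (4.29 ± 0.26, adjusted p = 2.0e-08) and *Frem2* (4.27 ± 0.22, adjusted p = 3.7e-09), while *Frem1* was lower (-2.59 ± 0.25, adjusted p = 1.6e-06). Among 9 other laminin receptors and dystrophin complex genes, 5 were higher and 0 lower, and *Sgca* (sarcoglycan α) had the largest change (4.96 ± 0.58, adjusted p = 4.8e-05). Of 19 ligands outside the laminins, 10 were higher and 6 were lower, among them *Vcam1* (-4.96 ± 0.86, adjusted p = 3.8e-04) and *Tnc* (-2.02 ± 0.58, adjusted p = 0.012). *Npnt*, the nephronectin ligand of α8, was at 206 to 387 CPM in mesothelial-like cells and 22.4 to 41.6 CPM in FB-like cells, the class with the highest level of the receptor chain *Itga8*. Adhesion complex adaptors showed 5 higher and 7 lower of 20, and membrane partners 8 higher and 1 lower of 10.

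In SMC-like cells, where 4.09% of all genes were higher than in FB-like cells and 4.71% lower, 6 of 20 adhesion complex adaptors were higher and 0 lower, and 3 of 10 membrane partners were higher and 0 lower, with *Cav1* (caveolin, 2.13 ± 0.33, adjusted p = 8.3e-04, edgeR) and *Plaur* (the urokinase receptor, 1.27 ± 0.31, adjusted p = 0.020) the largest of the latter. The basement membrane partners were split, 3 higher and 3 lower of 17. Of 19 other ligands, *Tgfb3* was higher (1.00 ± 0.13, adjusted p = 2.9e-04) and *Tgfb2* lower (-1.46 ± 0.17, adjusted p = 9.9e-05).

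In neural-like cells 27.9% of all genes were higher than in FB-like cells and 30.3% lower. The ligand list had 2 of 19 higher and 16 lower, with a median log2 fold change of -2.27. The 2 higher ones were *Spp1* (osteopontin, 4.06 ± 0.54, adjusted p = 1.6e-05, edgeR) and *Tgfb2* (3.34 ± 0.15, adjusted p = 2.0e-10). *Npnt* was among the lowest (-5.55 ± 0.33, adjusted p = 3.4e-09). Basement membrane partners gave 5 higher and 8 lower of 17, with *Ntn4*, a netrin that binds laminin networks, the highest (5.10 ± 0.61, adjusted p = 5.2e-06) and *Smoc2* the lowest (-6.64 ± 0.48, adjusted p = 2.3e-08). The tetraspanin *Cd9*, a membrane partner of integrins, had the largest change of the 75 companion genes tested with a higher level in neural-like cells (5.32 ± 0.11, adjusted p = 5.9e-14). Membrane partners gave 3 higher and 6 lower of 10, other laminin receptors and dystrophin complex genes 1 higher and 6 lower of 9, and adaptors 3 higher and 9 lower of 20.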

How the data were processed

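Embryonic intestinal stroma was measured in 2 LI and 2 SI libraries. Per the labels, reads were aligned to mm10 and counted with Cell Ranger (3.1.0), and a 3′ or a 5′ kit was used, with no statement of which library had which. The authors deposited raw UMI counts for 28692 genes in the barcodes called as cells, with no normalization, and integrated them with Seurat. Whether counting used strand is not given in the sources used here.

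Cells with at least 1000 genes and under 10% mitochondrial UMIs were kept. The automatic Scrublet threshold (scanpy 1.11.5) marked 1 to 6 cells a library, so the top scores were removed at 0.8% per 1000 cells, without regard to that threshold. Libraries were integrated in Seurat 5.3.0 on 2000 variable genes, less 67 members, companion genes and *Hox* genes, with cell cycle scores regressed out (30 components, resolution 0.3). Clusters were named after a class when 3 of its markers were among the 10 leading genes, stayed unnamed with fewer markers of another class or with over 75% of cells from 1 library, and were otherwise called FB-like when 3 FB markers were found in 10% of cells. That rule was set after the clusters were seen, and where classes differ from those of the study the rebuilt names may be the reason.

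Cells are not replicates, so UMIs were added up within each class of a library and tested with edgeR (4.0.16, quasi-likelihood test, TMM, default count filter, Benjamini-Hochberg adjustment over all genes, calls under 0.05), in R 4.3.3. Regions were compared within a class without a block, and classes and interactions in a fit of 4 classes with library as a block. CPM are relative to all UMIs of that class and library. Fold changes (log2) have SI or the named class on top, and LI or FB-like cells below. DESeq2 (1.42.0) and other settings were alternatives. On simulated counts edgeR recovered 54.1% of genes changed by 1 log2 unit and 95.9% of those changed by 2 when regions were compared within FB-like cells (13156 genes). For a change of 1 log2 unit it recovered 37.5% in SMC-like, 48.5% in mesothelial-like and 50% in neural-like cells. For a change of 2 it recovered 95.9%, 91.8% and 96.9% in the same order. The replicates differed by more than counting noise, with chi-square per degree of freedom of 2.81 to 30.6. P-values measure the spread between pooled libraries.

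The members, the companion lists and the rule for named genes were chosen with earlier results of these data known. The rule took every member (1 of them is not reported here), with values by library for called members and *Itgb1*, and up to 4 companion genes a direction and comparison. Clusters 3 and 8 and *Vcam1* and *Npnt* levels were added after values were seen. Gene positions come from GENCODE vM21, in which 28416 of the listed identifiers were found. Intervals and floors cover counting error only. Python 3.11.15 with pandas 2.3.3, SciPy 1.17.1, NumPy 2.4.6 and matplotlib 3.10.9 was used for sums and figures.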

Additional observations from a re-analysis of the deposited data

Results flagged for a closer look

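The regional difference of *Itga4* was 2.56 log2 units more towards SI in neural-like than in FB-like cells, by a test of the difference itself added after the levels were seen (edgeR, adjusted p = 1.1e-05). *Itga6* moved the same way by 1.23 log2 units. *Itga5* (-1.90), *Lamc1* (-0.99), *Lamb1* (-0.56) and *Itgb1* (-0.55) moved towards LI in the same test. *Itgb3* was shifted by -2.43 log2 units in mesothelial-like against FB-like cells, in a class with 47 UMIs of the gene.

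Members were also measured in unnamed clusters, which were left out of the tests between classes and regions and entered descriptions and alternative settings only. *Itgav* averaged 52.3 CPM over the 4 libraries in cluster 3 (led by *Adamdec1* and *Bmp3*) and 58.8 CPM in cluster 4 (led by *Anxa2*, *Wnt4* and *Tac2*). Cluster 4 also held *Itgb5* at 56.8 CPM, *Lama1* at 13.5 CPM and *Itga1* at 9.44 CPM. The cause of these levels was not tested.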

How the results depend on the processing

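No called member turned direction under any setting. The balance of all genes called for region did turn, from 167 higher in SI and 423 in LI to 1374 and 932 without LI replicate 2 in FB-like cells, from 44 and 124 to 582 and 310 in SMC-like cells, from 44 and 51 to 542 and 311 in mesothelial-like cells and from 12 and 23 to 832 and 641 in neural-like cells, and the replicate block turned it in FB-like, SMC-like and mesothelial-like cells as well. In mesothelial-like cells it also turned with DESeq2, without either SI replicate, with doubled doublet removal and in G1 cells, and in neural-like cells without a filter, without SI replicate 1, with equal totals and in G1 cells. Of the called members, the calls kept under every setting that gave a value were 2 of 3 for region in FB-like, 1 of 2 for region in SMC-like, 8 of 13 for mesothelial-like, 1 of 4 for SMC-like and 13 of 19 for neural-like against FB-like cells, 0 of 1 for the mesothelial and 1 of 6 for the neural interaction.

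The members called for region were 3 in FB-like cells (7 without a count filter, 5 in G1 cells), 2 in SMC-like cells (7 without a filter), 0 in mesothelial-like cells (1 each with DESeq2 size factors, without a filter, with equal totals, with doubled doublet removal, in G1 cells and with another gene order before clustering, an alternative added after seeing the data) and 0 in neural-like cells (1 without a filter). All genes called for region were 590, 168, 95 and 35 in FB-like, SMC-like, mesothelial-like and neural-like cells, and without a filter 1543, 897, 438 and 362. DESeq2 called 330 in SMC-like and 103 in neural-like cells, equal totals gave 59 and G1 cells 81 in neural-like cells, and doubled doublet removal gave 57 in mesothelial-like cells.

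Same-numbered LI and SI libraries share only a number. Their deviations correlated at 0.23 to 0.43 over genes, in 2 pairs. With the replicate block, members called were 8 in FB-like, 7 in SMC-like, 4 in mesothelial-like and 1 in neural-like cells, and all genes called were 1989, 1276, 748 and 408. Without the library block, members called against FB-like cells were 7 in mesothelial-like and 1 in SMC-like cells, and all genes were 2890 and 230.

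Against FB-like cells, SMC-like members called were 2 with DESeq2 (1186 of all genes), 7 with clusters 3 and 4 counted as FB-like (1167 of all genes, added after seeing the data) and 10 with the 2 classes alone, which called 2824 of all genes, against 4 and 1123. G1 cells gave 3269 genes for mesothelial-like cells against 5139. For the mesothelial interaction, *Itgb3* was not called with equal totals, with unnamed clusters or with clusters 3 and 4 as FB-like, so that 0 members were called, and all genes called rose from 301 to 814 without a filter. The SMC interaction called 1 member and 365 genes without a filter, 31 genes with DESeq2 and 197 in G1 cells, against 0 and 64. The neural interaction called 3 members in G1 cells and 2 with another gene order before clustering, against 6, and 1238 and 1428 of all genes against 1730.

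Leaving out each library in turn leaves 1 library of a region against 2, so that in tests of region only the other region gives a spread between replicates, and the lone library is assumed to vary alike. Members called for region ranged from 3 to 8 in FB-like, 1 to 5 in SMC-like, 0 to 1 in mesothelial-like and 0 to 2 in neural-like cells (all genes 432 to 2306, 203 to 892, 46 to 853 and 0 to 1473), with the highest counts for all genes without LI replicate 2. Against FB-like cells they ranged from 10 to 12 in mesothelial-like, 2 to 8 in SMC-like and 16 to 20 in neural-like cells (all genes 3638 to 4972, 428 to 1275 and 6098 to 7169). For the interactions they ranged from 0 to 0, 0 to 0 and 2 to 5 in mesothelial-like, SMC-like and neural-like cells (all genes 87 to 339, 5 to 71 and 514 to 1331). Leaving out SI replicate 2 gave the lowest counts of all genes in the interactions. The cause of these changes was not tested.

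Depth moved the share of cells with *Itgb1*, in which neural-like cells were lowest with thinning and highest without. It was 46.6%, 55.5%, 43.7% and 38.6% at 2000 UMIs and 84.3%, 90.6%, 82.0% and 91.4% without thinning in FB-like, SMC-like, mesothelial-like and neural-like cells. For *Itga7*, *Itgb2*, *Itgb6* and other members near 0, differences were not detectable at this depth.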

Other observations

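Cluster 8, an unnamed cluster of 332 cells with *Pf4*, *Afp*, *Foxd1* and *Hbb-bt* among its leading genes, held *Itga4* at 220 and 383 CPM in LI and at 46.4 and 38.3 CPM in SI, with no overlap. The UMIs numbered 343 in LI and 80 in SI, a ratio of CPM of 8.32 (95% interval 6.51 to 10.8, counting error only). *Itgav* in the same cells was at 151 and 105 CPM in LI and at 16 and 31.5 CPM in SI. These levels were chosen after they were seen and were not tested.

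In cluster 4, *Itga4* was at 42 and 25.2 CPM in LI and at 9.83 and 14.9 CPM in SI, again without overlap. *Lama4* in cluster 3 was uneven, at 4.96 and 9.04 CPM in LI and at 3.31 and 19.7 CPM in SI, and cluster 3 gave 31.7% of all *Lama4* UMIs of SI replicate 2. *Itgb8* in neural cluster 7 was at 3.01 CPM in LI replicate 1 and at 11.7 to 21.8 CPM in the other libraries.

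The mean number of different integrin α genes detected per thinned FB-like cell was 0.426 and 0.510 in LI and 0.301 and 0.413 in SI. The same count over laminin genes was 0.349 and 0.353 in LI and 0.325 and 0.406 in SI, so the regions overlapped for laminins and not for α chains. Mesothelial-like cells had the highest laminin count, 0.522 to 0.738 genes a cell, above the 0.144 to 0.410 of the other named classes.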
